A study of Homo sapiens with 3 samples.

Results

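The 9 genes described here encode cell-surface antigens that are used, or are under study, as drug targets in prostate cancer: FOLH1, STEAP1, STEAP2, PSCA, DLL3, CEACAM5, CD276, NECTIN4 and CD46. They were listed by name, without a threshold on their values but with earlier results of these data known, and each of the 9 matched 1 row of the files through its Ensembl identifier, out of 27024 counted genes. None of these rows held the same values as a neighbouring row. The samples were 3 RNA-seq libraries of untreated 22Rv1 cells of WT genotype, numbered replicates 1 to 3. 22Rv1 is an established human prostate carcinoma line grown in serum-containing medium, and WT cells keep the intact enhancer that was deleted in the KO cells of the same experiment. The study's methods call the WT samples control clones, whereas its results call them biological replicates, so the SD over them may measure clones or cultures. The KO and MUT libraries were not analysed here, and with a single group no comparison between conditions was made. Levels are the authors' normalized counts, which are read counts per gene divided by 1 size factor per library, and the reads behind them came to between 35675670 and 38629080 per library.

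A surface antigen can serve as a drug target because an antibody, a radioligand or an engineered T cell reaches it without entering the cell. FOLH1 encodes PSMA, a glutamate carboxypeptidase of the luminal prostate epithelium that is the target of PSMA imaging and radioligand therapy. STEAP1 and STEAP2 are transmembrane proteins named after the prostate epithelium, and STEAP2 is a metalloreductase. CD46 and CD276 are widely expressed: CD46 is a cofactor for the breakdown of deposited complement, and CD276, also called B7-H3, is a member of the B7 family of immune checkpoint ligands. NECTIN4 is an adhesion molecule best known as a target in urothelial cancer. PSCA is a small antigen held in the membrane by a lipid anchor. DLL3 is an inhibitory Notch ligand that marks neuroendocrine tumours, and CEACAM5 is the carcinoembryonic antigen, also examined as a target in neuroendocrine prostate cancer.

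The transcripts of FOLH1 and STEAP1 have near copies elsewhere in the genome, and their sequences are shown because they decide how far a read can be assigned to the target gene. In the GENCODE annotation of GRCh37, FOLH1 (ENSG00000086205) lies on chromosome 11 at 49166644 to 49230190 on the minus strand, and its canonical transcript has 19 exons. FOLH1B (ENSG00000134612) lies on the same chromosome at 89372405 to 89431767 on the plus strand. Of the FOLH1 transcript, 51.9% aligned to FOLH1B at 98.7% identity, with 27 differing bases in 2135 aligned. Of the 19 FOLH1 exons, 17 aligned to FOLH1B over their whole length, and 4 of them held no difference. The longest of these is coding exon 2, chr11:49227619-49227724 on the minus strand, which reads the same as chr11:89372405-89372510 on the plus strand, 5′ to 3′:

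FOLH1 exon 2: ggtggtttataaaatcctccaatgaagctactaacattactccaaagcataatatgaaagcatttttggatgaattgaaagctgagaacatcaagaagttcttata

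FOLH1B exon 1: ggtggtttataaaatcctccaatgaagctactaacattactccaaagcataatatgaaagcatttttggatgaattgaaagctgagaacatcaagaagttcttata

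The coding exon with the highest share of differing bases was exon 18, chr11:49170191-49170283 on the minus strand, against chr11:89429801-89429893 on the plus strand. Its 3 differing bases out of 93 are in capitals:

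FOLH1 exon 18: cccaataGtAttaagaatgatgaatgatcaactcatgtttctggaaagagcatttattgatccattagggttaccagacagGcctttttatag

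FOLH1B exon 17: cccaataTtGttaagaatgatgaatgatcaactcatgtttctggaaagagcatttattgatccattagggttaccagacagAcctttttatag

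Exon 1 of FOLH1 and the 3′ part of exon 19 had no counterpart in the FOLH1B transcript. Of the 3961 windows of 150 bases, the read length, in the FOLH1 transcript, 320 (8.08%) were found without a difference in FOLH1B, so that a single read from them fits both genes.

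**Figure D1:**
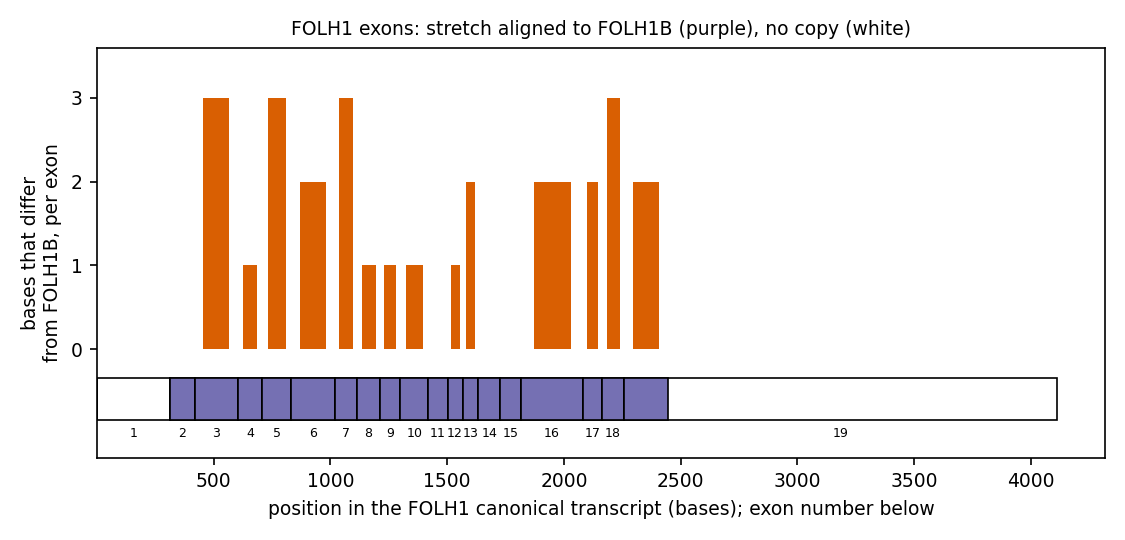
Position along the FOLH1 canonical transcript in bases (x axis) against the number of bases per exon that differ from FOLH1B (bars, y axis). Boxes are the 19 exons, purple where aligned to FOLH1B and white where not. Exons 2, 11, 14 and 15 carry no bar because they held no difference, and exon 1 and most of exon 19 are white.

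STEAP1 (ENSG00000164647) lies on chromosome 7 at 89783770 to 89794143 on the plus strand, and its near copy STEAP1B (ENSG00000105889) at 22459063 to 22539807 on the minus strand of the same chromosome. The alignment covered 71.2% of the STEAP1 transcript at 97.7% identity, with 20 differing bases, of which exon 3 held 10. The nearest match was coding exon 4. This exon, chr7:89791228-89791392 on the plus strand, differed from chr7:22532184-22532348 on the minus strand at 1 base of 165, in capitals:

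STEAP1 exon 4: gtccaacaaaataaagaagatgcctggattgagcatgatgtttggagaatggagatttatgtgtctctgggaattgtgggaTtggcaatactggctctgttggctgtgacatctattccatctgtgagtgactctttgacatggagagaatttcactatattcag

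STEAP1B exon 4: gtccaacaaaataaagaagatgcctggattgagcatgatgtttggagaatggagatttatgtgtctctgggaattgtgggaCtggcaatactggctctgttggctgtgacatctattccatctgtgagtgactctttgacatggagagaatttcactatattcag

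None of the 1070 windows of 150 bases of STEAP1 was found unchanged in the transcript of any other gene. The same held for STEAP2, PSCA, DLL3, CD276 and NECTIN4.

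The 9 genes fell into a group of 5 with high levels and a group of 4 with low ones. CD46, STEAP2, FOLH1, STEAP1 and CD276 each had a mean above 1000 normalized counts. NECTIN4, DLL3, PSCA and CEACAM5 each had a mean under 200. At 1 CPM (CPM being reads scaled to a fixed library size after TMM scaling) or more in all 3 libraries, 7 of the 9 genes were expressed, beside 47.7% of the 27024 counted genes. The exceptions were PSCA and CEACAM5.

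**Figure D2:**
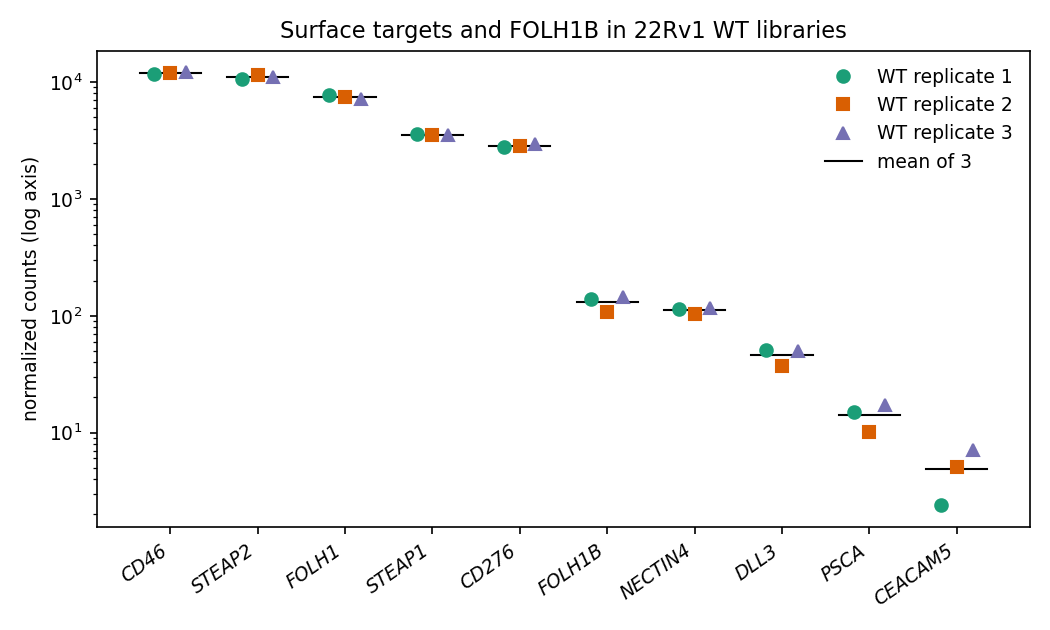
Normalized counts of the 9 targets and of the near copy FOLH1B (x axis) in each of the 3 WT libraries, on a log axis (y axis), with a line at the mean. CD46, STEAP2, FOLH1, STEAP1 and CD276 lie above 1000 normalized counts in every library, and FOLH1B lies beside NECTIN4.

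FOLH1 stood at 7813.7, 7506.2 and 7112.2 normalized counts in replicates 1, 2 and 3, a mean of 7477 ± 352 (SD, n = 3). Replicate 1 was the highest and replicate 3 the lowest, 1.10 times apart. FOLH1B had 138.3, 108.3 and 145.6 normalized counts, so the ratio of FOLH1 to FOLH1B was 56.5, 69.3 and 48.9 in normalized counts. Per kilobase of transcript the ratio was 29.4, 36.0 and 25.4. FOLH1B was lowest in replicate 2, where FOLH1 was not. In the chi-square test described below FOLH1B was not called (adjusted p = 0.0651). Even if every FOLH1B read came from FOLH1, the FOLH1 level would have been higher by less than its SD. The share of FOLH1 reads placed elsewhere or left out as fitting both genes was not tested.

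The STEAP pair lies side by side on chromosome 7, STEAP2 (ENSG00000157214) at 89796904 to 89867451 on the plus strand. STEAP1 had 3609.0, 3498.4 and 3515.1 normalized counts, a mean of 3541 ± 59.6 (SD, n = 3). STEAP2 had 10566.3, 11405.7 and 10988.7, a mean of 10987 ± 420 (SD, n = 3). STEAP1 was highest in replicate 1 and STEAP2 in replicate 2. In the chi-square test described below STEAP1 was not called (adjusted p = 0.349), so its ranking of the libraries may be sampling noise. Within a library, STEAP2 had 2.93 to 3.26 times as many normalized counts as STEAP1. Per kilobase of the canonical transcript the direction turned, and the STEAP2 level was 0.511 to 0.569 times that of STEAP1. The STEAP2 transcript is 6984 bases long and that of STEAP1 1219 bases, whereas the longest coding sequences have 1470 and 1017 bases. STEAP1B stood at 0, 9.3 and 6.3 normalized counts, and its identifier also stood on a row at 0 in each library. The antisense gene STEAP2-AS1 had between 1.7 and 2.4 normalized counts and shared no exon base with the canonical transcript of either gene.

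CD46 (ENSG00000117335), at 207925382 to 207968858 of chromosome 1 on the plus strand, had the highest level of the 9 genes. Its normalized counts were 11745.9, 11966.0 and 12116.8, a mean of 11943 ± 187 (SD, n = 3). The SD was 1.56% of the mean, the smallest of the 9. Of the CD46 transcript, 198 bases overlap exons of MIR29B2CHG on the opposite strand, a gene without a row here.

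CD276 (ENSG00000103855), at 73976307 to 74006855 of chromosome 15 on the plus strand, had 2794.5, 2818.9 and 2944.4 normalized counts, a mean of 2853 ± 80.4 (SD, n = 3). It overlapped no other annotated gene. NECTIN4 (ENSG00000143217), at 161040788 to 161059348 of chromosome 1 on the minus strand, had 115.3, 103.2 and 117.3 normalized counts, a mean of 112 ± 7.63 (SD, n = 3). CD276 was therefore the lowest of the high group and NECTIN4 the highest of the low group, and per kilobase of transcript CD276 was 26.8 times as high (log2 difference 4.74 ± 0.089, SD over 3 libraries).

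DLL3 (ENSG00000090932), at 39989535 to 39999121 of chromosome 19 on the plus strand, had 50.6, 37.2 and 50.4 normalized counts, a mean of 46.1 ± 7.68 (SD, n = 3). These values rest on 64, 44 and 64 reads, so replicates 1 and 3 lay close together and replicate 2 below them. Among the neuroendocrine markers, SYP, a synaptic vesicle protein, had 3564.0, 3488.2 and 3468.7 normalized counts. The neuroendocrine transcription factors NEUROD1 and INSM1 were at 0 reads in each library. Of the 7 neuroendocrine markers, 3 were expressed at 1 CPM, namely SYP, CHGA and CHGB.

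PSCA (ENSG00000167653), at 143751726 to 143764143 of chromosome 8 on the plus strand, had 15.0, 10.2 and 17.3 normalized counts. The reads were 19, 12 and 22, a mean of 5.89 times the floor of 3 reads. JRK, a gene on the opposite strand with 2266.7, 2207.0 and 2176.0 normalized counts, shares 117 exon bases with PSCA, 11.9% of the PSCA transcript. The strandedness of the counting is not given in the sources used here, so reads of JRK and PSCA in this stretch cannot be told apart, and their part in the PSCA count was not tested. CEACAM5 (ENSG00000105388), at 42212504 to 42234353 of chromosome 19 on the plus strand, had the lowest level, with 2.4, 5.1 and 7.1 normalized counts from 3, 6 and 9 reads. In replicate 1 it stood at the floor of 3 reads. A further gene on the same strand, without a row, shares 139 bases (3.97%) of its transcript. At this depth PSCA and CEACAM5 had reads in each library, but their values carry an SD of 25.6% and 48.5% of the mean. Whether these reads came from PSCA and CEACAM5 or from the overlapping genes was not tested.

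Levels of different genes can be compared only per length, so normalized counts were divided by the kilobases of the canonical transcript. CD46 came first with 3597 ± 56.2 normalized counts per kb (SD, n = 3), followed by STEAP1 at 2905 ± 48.9 and FOLH1 at 1819 ± 85.6. STEAP2 at 1573 ± 60.1 and CD276 at 866 ± 24.4 completed the high group. The low group held NECTIN4 at 32.4 ± 2.21, DLL3 at 23.0 ± 3.83, PSCA at 14.4 ± 3.69 and CEACAM5 at 1.39 ± 0.67 normalized counts per kb. With this length the mean of CD46 was 2588 times that of CEACAM5, a rough figure because CEACAM5 had only 3, 6 and 9 reads. In each of the 8 pairs of neighbours in this order, the 3 values of the higher gene lay above the 3 values of the lower one. An exact permutation test of 3 against 3 values cannot go below p = 0.1, so no pair was tested further. The closest pair in the high group was FOLH1 and STEAP2, with a log2 difference of 0.21 ± 0.10 (SD, n = 3). DLL3 and PSCA came nearest to overlap, with 18.6 normalized counts per kb in the lowest DLL3 library and 17.6 in the highest PSCA library. The median over the 9 genes was 866 normalized counts per kb, beside 315 over the 12852 expressed genes with a known length and 21.6 over the 24863 counted genes with one.

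**Figure D3:**
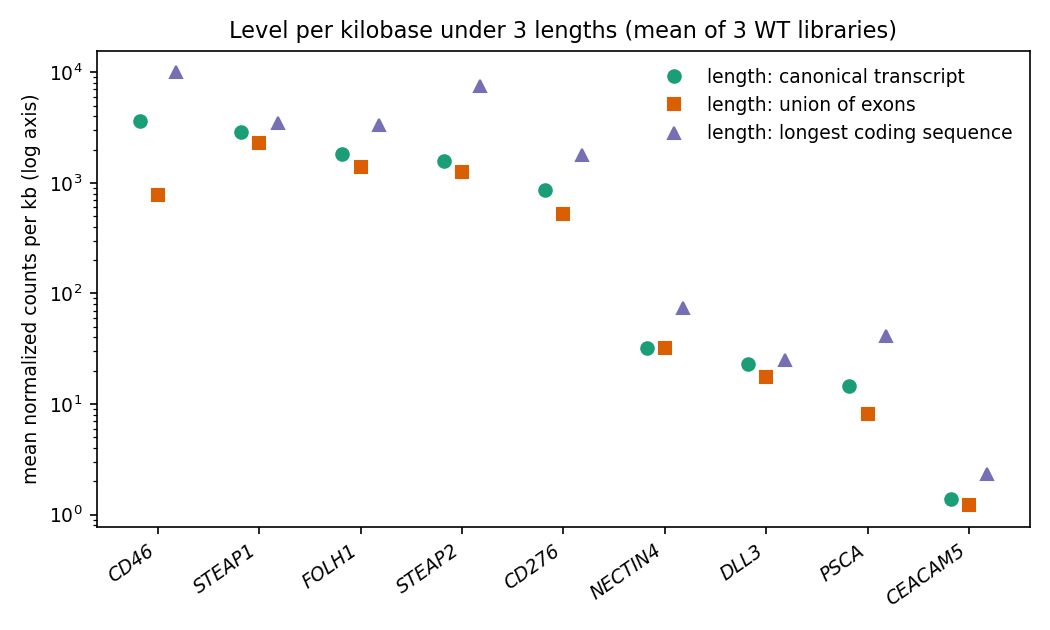
Mean normalized counts per kilobase of the 9 targets over the 3 WT libraries, on a log axis (y axis), with 3 definitions of the length: canonical transcript, union of all annotated exons and longest coding sequence. CD46 ranks first with 2 of the definitions and below STEAP1, FOLH1 and STEAP2 with the union of exons, while CEACAM5 ranks last with each of them.

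The length used changed part of this order. With the union of all annotated exons, which is 15505 bases for CD46 against 3320 for its canonical transcript, CD46 fell to 770 normalized counts per kb, below STEAP1, FOLH1 and STEAP2. With the longest coding sequence, STEAP2 at 7474 stood above STEAP1 at 3482, and PSCA at 41.4 above DLL3 at 24.8. The gap between the groups also narrowed with the union of exons, where CD276 stood at 520 and NECTIN4 at 32.4 normalized counts per kb. The division into the 5 high and 4 low genes was the same with the 3 definitions. Which transcripts 22Rv1 cells used cannot be read from counts per gene.

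To ask whether a gene varied between WT libraries beyond sampling noise, its reads were set against the scaled library sizes in a chi-square test. All genes averaging 10 reads or more entered this test, with Benjamini-Hochberg adjustment over them. Of the 8 targets tested, 2 differed between libraries, beside 41.9% of the 14646 genes tested. They were FOLH1 (adjusted p = 4.10e-09 in the chi-square test) and STEAP2 (adjusted p = 5.56e-08). The share called rose with read number, to 46.63% of genes with 1000 to 10000 reads and 81.55% of those with more. FOLH1 lay in the first of these ranges, STEAP2 and the uncalled CD46 in the second. FOLH1 was highest in replicate 1 and STEAP2 in replicate 2. CEACAM5 was below the minimum and was not tested. When edgeR's trended dispersion was added to the expected variance, 0 of the 8 targets differed, beside 0.416% of the 14646 genes tested. This dispersion was estimated from the same 3 libraries, so it takes in the spread under test and few genes can be called. The 0 calls therefore do not show that the targets were stable. At an unadjusted p under 0.05 in that test 0 targets passed, and the share of all genes at this threshold was not computed. The unadjusted p was then 0.199 for FOLH1 and 0.356 for STEAP2, and both adjusted p-values were 1. In the high group the coefficient of variation (SD divided by mean) ran from 1.56% for CD46 to 4.70% for FOLH1. Over the 6965 genes with 1000 to 10000 reads the median was 3.67%, and over the 607 genes with more reads 2.76%. Of the gene families described next, targets included, the chi-square test called 2 of 4 tested PSMA family genes, 3 of 4 STEAP genes and 2 of 4 complement regulators. It called 5 of 7 B7 genes, 4 of 5 nectins, 3 of 5 Notch ligands, 3 of 3 CEACAM genes and 1 of 5 Ly6/uPAR genes. With edgeR's trended dispersion it called 0 genes of these families, and the unadjusted p was under 0.05 for DLL1 (0.000572) and NECTIN3 (0.0201). DLL3 had an SD of 16.7% of the mean, beside a median of 26.5% over the 2640 genes with 10 to 100 reads, and PSCA one of 25.6%.

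Each target was set beside the other members of its gene family, per kilobase of the canonical transcript. Shares and ranks within families were not computed with the other lengths. FOLH1 took 92.9% ± 0.57 (SD, n = 3) of the summed level of the 5 genes of the PSMA family. NAALADL2 and FOLH1B followed at 62.1 ± 2.31 and 61.2 ± 9.26 normalized counts per kb, closer to each other than the SD of FOLH1B. NAALAD2, a peptidase closely related to PSMA, stood at 14.0 ± 4.09. In the STEAP family, STEAP1 took 63.0% ± 1.1 and STEAP2 34.1% ± 1.3 of the sum. With the longest coding sequence this pair changed order, STEAP2 at 7474 and STEAP1 at 3482 normalized counts per kb. STEAP3, a ferrireductase of iron uptake, stood at 121 ± 10.7 normalized counts per kb of the canonical transcript and STEAP4 at 4.01 ± 1.16. CD46 took 86.7% ± 0.68 of the summed level of 6 membrane complement regulators. CD55 and CD59, which act on the convertases and on the membrane attack complex, stood at 298 ± 23.5 and 242 ± 11.2 normalized counts per kb. The complement receptor genes CR1 and CR1L were listed at 0, whereas CR2 stood at 9.72 ± 2.00 normalized counts per kb and was expressed at 1 CPM.

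CD276 was the highest of the 10 genes of the B7 family, with 70.3% ± 2.2 (SD, n = 3) of the summed level. NCR3LG1, the ligand of the natural killer cell receptor NKp30, stood at 239 ± 18.1 normalized counts per kb and ICOSLG at 103 ± 7.69. CD274, which encodes PD-L1, had 16.6, 19.5 and 7.9 normalized counts, and PDCD1LG2 had 0, 4.2 and 0. The T cell costimulatory ligands CD80 and CD86 were at 0 in each library. In each library CD276 was thus above every other gene of its family.

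In the remaining families the target was not the leading gene. NECTIN4 was the lowest of the 5 nectin genes and took 1.77% ± 0.16 of their summed level. PVR, the poliovirus receptor, stood at 693 ± 19.9 normalized counts per kb and NECTIN1 at 632 ± 33.5, and all 5 genes were expressed at 1 CPM. Among 7 Notch ligands and related genes, DLL3 ranked below JAG2, DLL4 and DLK2, with 4.81% ± 0.66 of the sum. JAG2 stood at 362 ± 24.4 normalized counts per kb, followed by DLL4 at 53.8 ± 11.1 and DLK2 at 34.0 ± 5.38, while DLL1 had 0.8, 8.5 and 23.6 normalized counts. CEACAM5 ranked 4 of 12 CEACAM genes, of which 8 were listed at 0 and 1 was expressed at 1 CPM. That gene was CEACAM6, with 132.7, 88.0 and 126.0 normalized counts. The CEACAM5 transcript aligned to CEACAM6 over 63.0% of its length at 87.7% identity, and shared no unchanged window of 150 bases with it. PSCA ranked 4 of 11 genes of the Ly6/uPAR family, below CD59, LY6E at 179 ± 15.6 and PLAUR at 86.9 ± 5.11 normalized counts per kb.

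**Figure D4:**
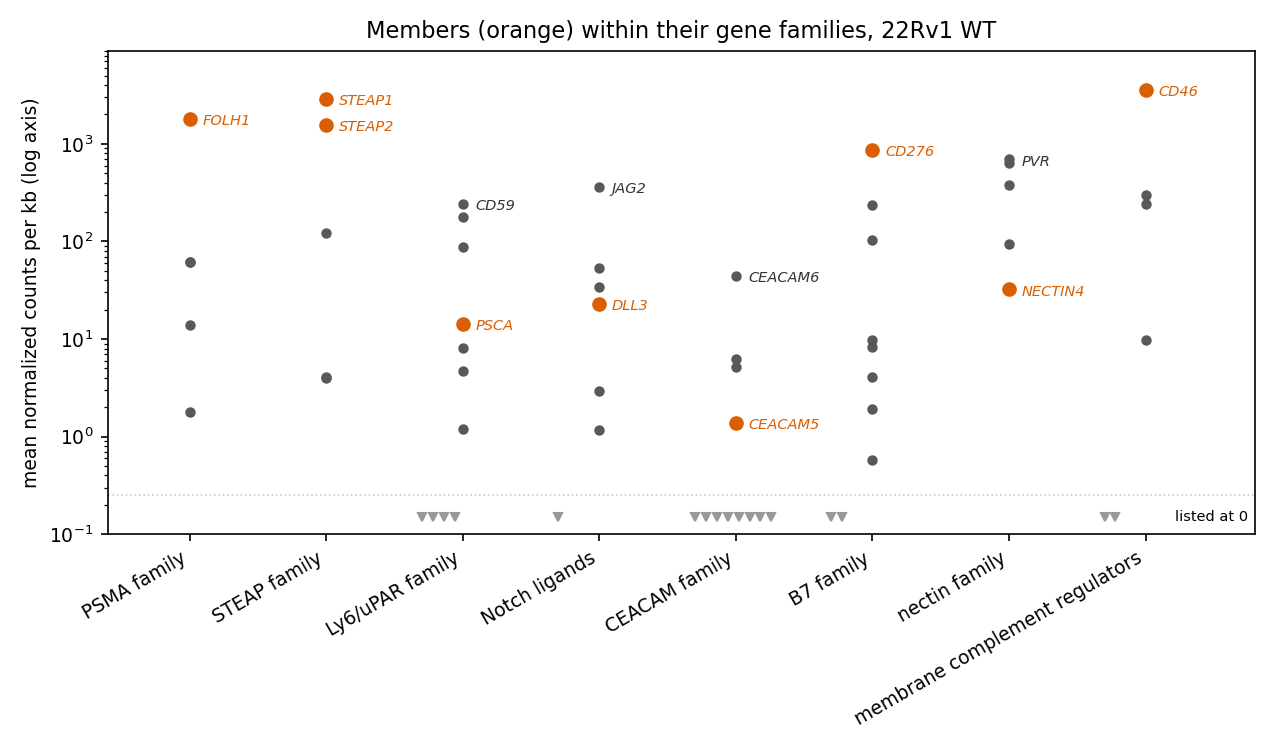
Mean normalized counts per kilobase of the canonical transcript over the 3 WT libraries (y axis, log) of the genes of 8 families (x axis). Each circle is a gene, the targets are orange, the highest gene of each family is named, and triangles below the dotted line are genes listed at 0. With this length FOLH1, STEAP1, CD276 and CD46 lead their families, while NECTIN4 is the lowest of its own.

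A list of 30 other surface antigens, of which 29 had a row, placed the targets on a wider scale. At 1 CPM, 21 of the 29 were expressed. The median level over all 29 was 110 normalized counts per kb, beside 866 for the 9 targets. The 5 highest were SLC39A6 at 2546 ± 37.7, the transferrin receptor TFRC at 2312 ± 37.2, the epithelial adhesion molecule EPCAM at 1411 ± 39.3, ADAM9 at 1358 ± 9.51 and the receptor ERBB3 at 1286 ± 44.7 normalized counts per kb (SD, n = 3). Of the 38 genes together, per kilobase of the canonical transcript, CD46 and STEAP1 ranked 1 and 2, above SLC39A6, and FOLH1 and STEAP2 ranked 5 and 6, above EPCAM. The ranks among these 38 genes were not computed with the other lengths, which moved CD46 below STEAP1, FOLH1 and STEAP2 with the union of exons. CD276 ranked 10, between ERBB3 and TNFRSF10B. NECTIN4, DLL3 and PSCA ranked 26 to 28. The 5 lowest were ROR1 at 4.01 ± 0.70 normalized counts per kb, GRPR, CLDN18, MSLN and CLDN6. CEACAM5 ranked 34, between ROR1 and GRPR, which had 0, 0 and 7.9 normalized counts. MSLN had 1.6, 0 and 0.8, and CLDN6 was at 0 in each library. Of the 24 genes of this list with enough reads, the chi-square test called 6, beside 41.9% of all genes tested. With edgeR's trended dispersion it called 0, beside 0.416% of all genes tested. There 0 had an unadjusted p under 0.05, a threshold for which the share of all genes was not computed.

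**Figure D5:**
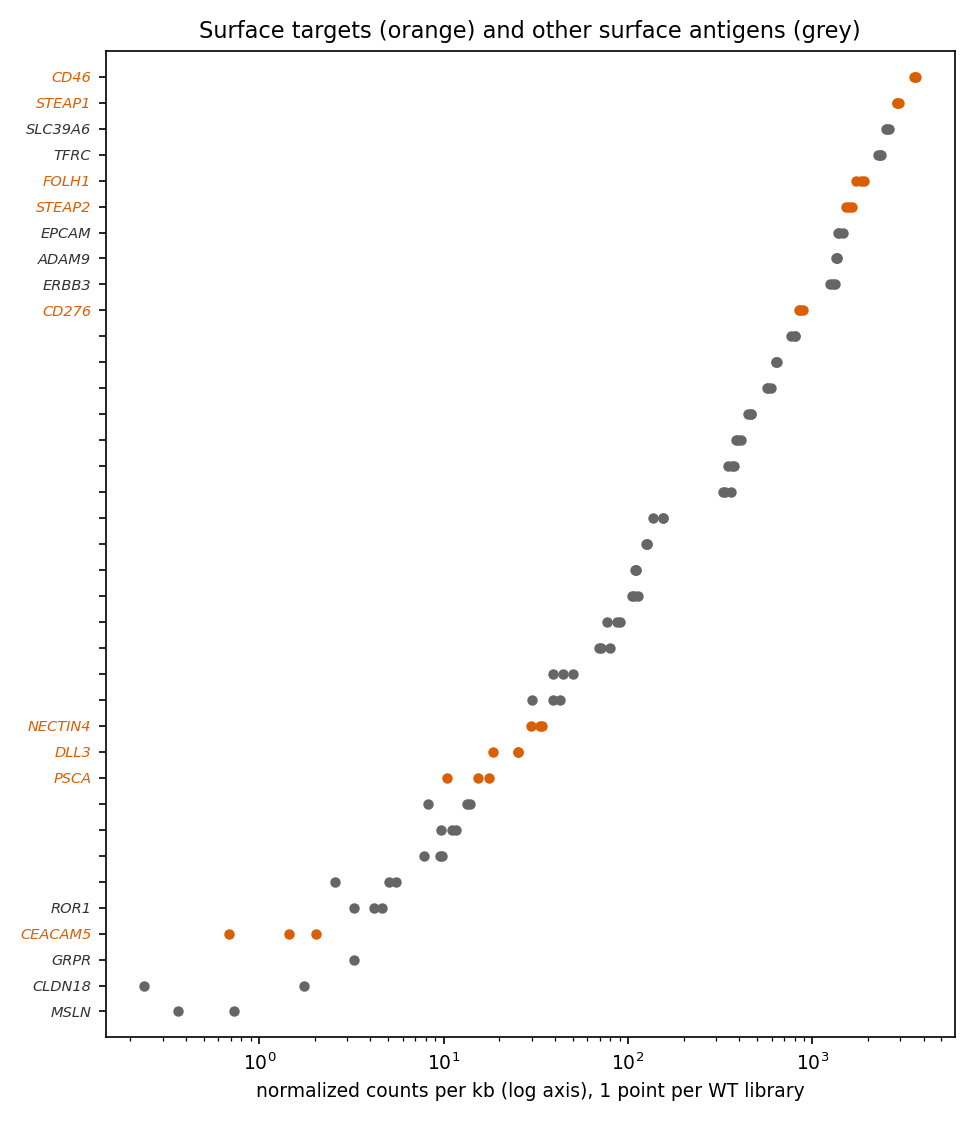
Normalized counts per kilobase of the canonical transcript, on a log axis (x axis) of the 9 targets (orange) and the other surface antigens (grey), ordered by their mean (y axis), with a point for each WT library. The targets and the 5 highest and 5 lowest other antigens are named. Values of 0 are not drawn, and CLDN6, at 0 in each library, is left out. The points of CD46 and STEAP1 lie to the right of all others, and CEACAM5 is placed between ROR1 and GRPR by its mean.

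The cell type of the libraries was checked with fixed marker lists. All 10 luminal prostate markers were expressed at 1 CPM, among them HOXB13 at 10150.7, 9750.5 and 9966.8 normalized counts and the luminal keratin KRT8. The 3 basal epithelial markers KRT5, KRT14 and TP63 were at 0 in each library. Of the 5 fibroblast markers, 2 were expressed at 1 CPM, COL1A1 at 278.1, 243.7 and 261.4 normalized counts and LUM at 141.4, 162.5 and 177.9, and the list summed to between 429.8 and 488.1. DCN, with 26, 1 and 5 reads, differed between libraries also with edgeR's trended dispersion (adjusted p = 0.0435). COL1A2 had 0, 0.8 and 0 normalized counts. The immune list summed to between 77.8 and 89.3, of which CD68 held 79.8, 60.9 and 59.0, while CD3E and MS4A1 were at 0. Of the endothelial list, VWF and CDH5 had a row and summed to at most 1.6 normalized counts.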

How the data were processed

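RNA was measured in 3 libraries of 22Rv1 WT cells. From 150-bp paired-end reads the authors made HISAT2 alignments on GRCh37 and HTSeq gene counts against GENCODE, then applied DESeq2 normalization. What they deposited is therefore a signal: the count of a gene over the library's size factor (1.18 to 1.27), with 1 decimal. The GENCODE release, strandedness and handling of multi-mapped reads are not given in the sources used here.

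Reads were recovered from the step of each library, and 100% of the values above 0 were whole multiples within rounding. Neighbouring rows with the same values in all 3 libraries, at least 1 of them above 0, counted once, which removed 1976 of 29000 rows. Rows at 0 in all 3 libraries were each kept and are among the counted genes. TMM scaling used edgeR 4.0.16 (R 4.3.3). The chi-square test between libraries covered genes averaging 10 reads or more, at a Benjamini-Hochberg threshold of 0.05 (scipy 1.17.1). It was tried on simulated data with sampling noise alone, which does not cover the wider spread of these libraries. Alternatives were DESeq2 1.42.0 size factors, library totals, other minimum counts and CPM, edgeR's trended dispersion, other gene lengths, and leaving out each replicate. Lengths and positions came from GENCODE annotation lifted to GRCh37, the authors' build. Copies were aligned with minimap2 2.31, and 150-base windows were searched on both strands of all annotated transcripts. Exon sequences were checked against the genome.

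The text names the 9 targets, their near copies, the leading gene of each family and the 5 highest and 5 lowest other antigens. Genes named beyond this rule were chosen after their values were seen. The targets and lists were chosen with earlier results of these data known. CD24 and PECAM1 matched no row. Some genes of the lists are not reported here by name. No likeness of pattern to other genes was computed, since there are only 3 libraries of 1 group, and p-values then measure the spread between these samples, which may be technical. The floor of 3 reads covers counting error only.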

Additional observations from a re-analysis of the deposited data

How the results depend on the processing

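The number of all genes that differed between WT libraries, 6141 in the chi-square test, was 61 with edgeR's trended dispersion and ran from 3332 to 3950 when each replicate was left out in turn, which compares fewer libraries. Of the targets, 2 differed, 0 with the trended dispersion, which was estimated from these same libraries, and 2 to 3 with a replicate left out. With a replicate left out, between 14639 and 14668 genes were tested. Without replicate 2, CD46 was called as well (adjusted p = 0.0458 in the chi-square test), against 0.101 over 3 libraries. Other scalings and minimum counts gave 2 targets each, beside 5599 to 6676 genes called among all genes tested. The count of 7 expressed targets was 7 at 0.5 CPM and under the other scalings and 5 at 5 CPM. The share of all counted genes was computed only at 1 CPM, where it was 47.7%, so these other counts have no share to be read against. Of the 8 pairs of neighbours in the order per kilobase, 7 kept their order with the union of exons and 6 with the longest coding sequence. Leaving out any replicate kept all 8, which was fixed in advance because the values of neighbours did not overlap. Of the 18 levels per kilobase with another length, 15 moved by more than 1 SD. The 54 recomputed WT levels moved by less than 1 SD. For those with a replicate left out this was fixed in advance, since the mean of the remaining libraries cannot move that far. The rescaled levels kept the same average size factor, so they say little about stability. Depth limits CEACAM5 and PSCA, for which the largest fall that could be measured from the mean down to 3 reads is 1.0 and 2.56 on the log2 scale. No paired analysis was possible because only a single group was analysed.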

Other observations

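Some other surface antigens had nearly the same value in all 3 WT libraries, and these genes were picked after their values were seen. F3, which encodes tissue factor, had 289.2, 289.4 and 288.9 normalized counts from 366, 342 and 367 reads. GPC1 had 406.9, 408.7 and 411.0 normalized counts. TMEFF2, a transmembrane protein with follistatin-like domains, had 1780.0, 1778.0 and 1798.9. In the chi-square test the adjusted p was 0.998 for F3, 0.996 for GPC1 and 0.970 for TMEFF2. Because these genes were picked for their close values, the values do not show that they were more stable than others.

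SEZ6, a neuronal surface protein that is under study as a target in neuroendocrine tumours, had 1462.4, 1575.7 and 1542.3 normalized counts, a mean of 1527 ± 58.2 (SD, n = 3). Per kilobase it stood at 363 ± 13.8 normalized counts, and DLL3 at 23.0 ± 3.83. SSTR2, a somatostatin receptor used in imaging of neuroendocrine tumours, had 89.3, 74.5 and 85.0 normalized counts.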
